A study of Rattus norvegicus with 24 samples.

Results

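Slc2a1, Slc2a4, Cpt1b and Ppargc1a are 4 genes of glucose uptake, fatty acid entry into mitochondria and the control of mitochondrial genes in heart muscle. They were selected by their Ensembl gene IDs (ENSRNOG00000007284, ENSRNOG00000017226, ENSRNOG00000010438 and ENSRNOG00000004473), which gave 4 rows of the 32883 in the count table. The pairing of these IDs with gene symbols came with the selection, since the count table lists IDs alone. All 4 genes passed the filter on low counts, as did 14540 genes in all. RNA was sequenced from left ventricle of Sprague Dawley rats, 6 libraries per group, 24 in all. In the Microneedle patch group an infarcted heart carried a patch held by its own microneedles, in the Sutured patch group an infarcted heart carried a patch fixed with sutures, in the MI group the heart was infarcted and carried no patch, and Sham was the operated control. Tissue was taken from the region of the infarct 7 days after infarction and patch placement; for Sham rats the labels leave the part of the ventricle open. They also give no age or sex, and do not state that each library came from a separate rat, so the p-values refer to spread among libraries, some of which may be technical.

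Slc2a1 encodes GLUT1, the glucose transporter that most cell types use for basal uptake, independent of insulin. Slc2a4 encodes GLUT4, the transporter that muscle and fat cells move to their surface in response to insulin or contraction. Cpt1b encodes the muscle form of carnitine palmitoyltransferase 1, which sits on the outer mitochondrial membrane and commits long-chain fatty acids to oxidation. Ppargc1a encodes PGC-1 alpha, a transcriptional coactivator that drives genes of mitochondrial biogenesis and fatty acid oxidation. The healthy adult heart draws most of its energy from fatty acids, and a shift towards glucose is a known feature of injured and failing myocardium. An infarct also replaces muscle cells by inflammatory cells and fibroblasts, which take up glucose largely through transporters other than GLUT4.

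The promoters of the genes that moved in opposite directions are shown here, since Slc2a1 and Ppargc1a were the members with an entry in the RefSeq promoter table (2 of 4, assembly GRCr8). Each line holds the 250 bases before the annotated start, 5′ to 3′ on the plus strand, in lower case. Capitals mark the letters ACGTG (core of the hypoxia response element), TGACGTCA (cyclic AMP response element) or GGGCGG (GC box), searched on both strands; a GC box on the opposite strand reads CCGCCC. No marked matches overlapped.
Slc2a1, chr5:138002272-138002521: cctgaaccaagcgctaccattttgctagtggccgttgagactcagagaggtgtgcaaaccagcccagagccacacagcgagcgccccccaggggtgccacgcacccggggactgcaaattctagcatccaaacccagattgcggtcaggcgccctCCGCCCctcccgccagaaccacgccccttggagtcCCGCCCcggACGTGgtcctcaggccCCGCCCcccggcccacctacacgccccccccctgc
Ppargc1a, chr14:63634058-63634307: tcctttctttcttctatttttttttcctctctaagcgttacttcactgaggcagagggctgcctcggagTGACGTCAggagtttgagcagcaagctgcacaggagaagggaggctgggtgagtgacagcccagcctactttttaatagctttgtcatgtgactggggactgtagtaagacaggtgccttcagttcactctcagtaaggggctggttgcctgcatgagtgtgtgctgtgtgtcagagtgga
The Slc2a1 window held 3 GC boxes, all on the opposite strand, and 1 hypoxia response core that begins 51 bases before the start. It held 0 cyclic AMP response elements. The Ppargc1a window held 1 cyclic AMP response element, beginning 181 bases before the start, and 0 matches to the other motifs. Among 33469 promoter windows of the same length, 30.5% held a GC box, 16.6% a hypoxia response core and 1.59% a cyclic AMP response element. The bases G and C made up 68.4% of the Slc2a1 window and 50.4% of the Ppargc1a window, against a median of 51.2% over all windows. These matches describe letters in a window, not bound sites.

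Libraries of the groups with an infarct held 12574300 to 14552623 counts and Sham libraries 5443782 to 11757562, so the deepest Sham library was shallower than any other. Sham replicates 4 and 5 had the fewest genes with a count, 14079 and 13635, while the other 22 libraries had between 16223 and 17404. Sham replicate 5 also held the lowest value within Sham of each of the 4 genes, and Sham replicate 4 the highest of Slc2a4, Cpt1b and Ppargc1a. Levels are given as CPM, read counts relative to the library total after scaling by TMM, a factor per library that evens out differences in composition. They are not divided by gene length, so levels are compared between groups and not between genes. Differences were tested with edgeR's quasi-likelihood test in a fit of all 24 libraries, with Benjamini-Hochberg adjusted p-values over all 14540 genes, and changes are called where the adjusted p was below 0.05. The median log2 fold change over all tested genes lay between -0.042 and 0.021 in the 6 comparisons. In bulk tissue such as this, fewer cells of a type and less RNA per cell cannot be told apart. The labelled tissue could not be checked against markers of muscle or other cell types, because no other ID could be paired with a symbol, and the part of cell composition in the results was not tested.

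Of the 4 genes, Slc2a1 alone was higher in all 3 groups with an infarct than in Sham, and its group means stood in the order Microneedle patch, Sutured patch, MI, Sham. Its level ran from 46.4 CPM over a median of 72.3 to 165 CPM in Microneedle patch libraries and from 45.0 over 50.6 to 139.7 CPM in Sutured patch libraries. In MI it ran from 27.7 over 29.5 to 41.5 CPM, and in Sham from 5.73 over 19.7 to 23.98 CPM. The lowest library of each patch group was above the highest MI library, and the lowest MI library was above the highest Sham library, whereas the patch groups overlapped. Such separation, with the first group higher, was seen in 14.8% of all tested genes for MI against Sham, in 15% for the Microneedle patch against Sham, in 12.7% for the Sutured patch against Sham, and in 4.59% for the Sutured patch against MI. Slc2a1 was most even in MI, with a coefficient of variation of 17.1%, against 49.9% in the Microneedle patch group, 54.5% in the Sutured patch group and 37.1% in Sham. The Sham value rested on replicate 5. Without that library the SD of the log2 level was 0.229 in Sham, against 0.232 over all MI libraries.

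In the Microneedle patch group Slc2a1 averaged 85.8 ± 42.8 CPM, against 18.2 ± 6.73 CPM in Sham (SD, n = 6 each), a log2 fold change of 2.23 (SE 0.33, edgeR adjusted p = 4.13e-06). With the Sutured patch it averaged 67.4 ± 36.7 CPM, a log2 fold change of 1.88 from Sham (SE 0.33, edgeR adjusted p = 4.29e-05). In MI it averaged 31.9 ± 5.45 CPM, a log2 fold change of 0.81 from Sham (SE 0.32, edgeR adjusted p = 0.0442, above every Sham library in 6 of 6 libraries). This call stood close to the threshold. It was lost without any one of MI replicates 2 to 6, Sham replicates 2, 5 and 6, or Microneedle patch replicates 3 and 4, with edgeR adjusted p-values up to 0.0984, and the log2 fold change was 0.63 without Sham replicate 5. It was also lost without Sham replicates 4 and 5 together (log2 fold change 0.67, edgeR adjusted p = 0.0966) and without the filter on low counts (0.82, edgeR adjusted p = 0.0534).

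Against MI, Slc2a1 rose in the Microneedle patch group by a log2 fold change of 1.43, or 2.69-fold (SE 0.32, edgeR adjusted p = 0.00502). In the Sutured patch group its log2 fold change from MI was 1.08 (SE 0.32), with every one of the 6 libraries above every MI library, and the edgeR adjusted p of 0.0520 narrowly missed the threshold. This comparison passed with DESeq2 (log2 fold change 1.07, adjusted p = 0.0182), with the 2 groups fitted alone (1.08, edgeR adjusted p = 0.0181) and without Sham replicates 4 and 5 (1.07, edgeR adjusted p = 0.0194). It also passed without any one of Sham replicates 4 and 5, Sutured patch replicate 1, or Microneedle patch replicates 1, 2 and 5, with edgeR adjusted p-values between 0.0178 and 0.0480. Without Sutured patch replicate 3, the highest library of that group, the log2 fold change was 0.73 (edgeR adjusted p = 0.209). Between the Microneedle and the Sutured patch groups, the log2 fold change was 0.35 with a 95% interval from -0.30 to 0.998 (edgeR adjusted p = 0.670).

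Slc2a4, Cpt1b and Ppargc1a showed the reverse order of group means, with the Microneedle patch group lowest and Sham highest. The levels of all 4 genes by library are plotted on log axes.

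**Figure D1:**
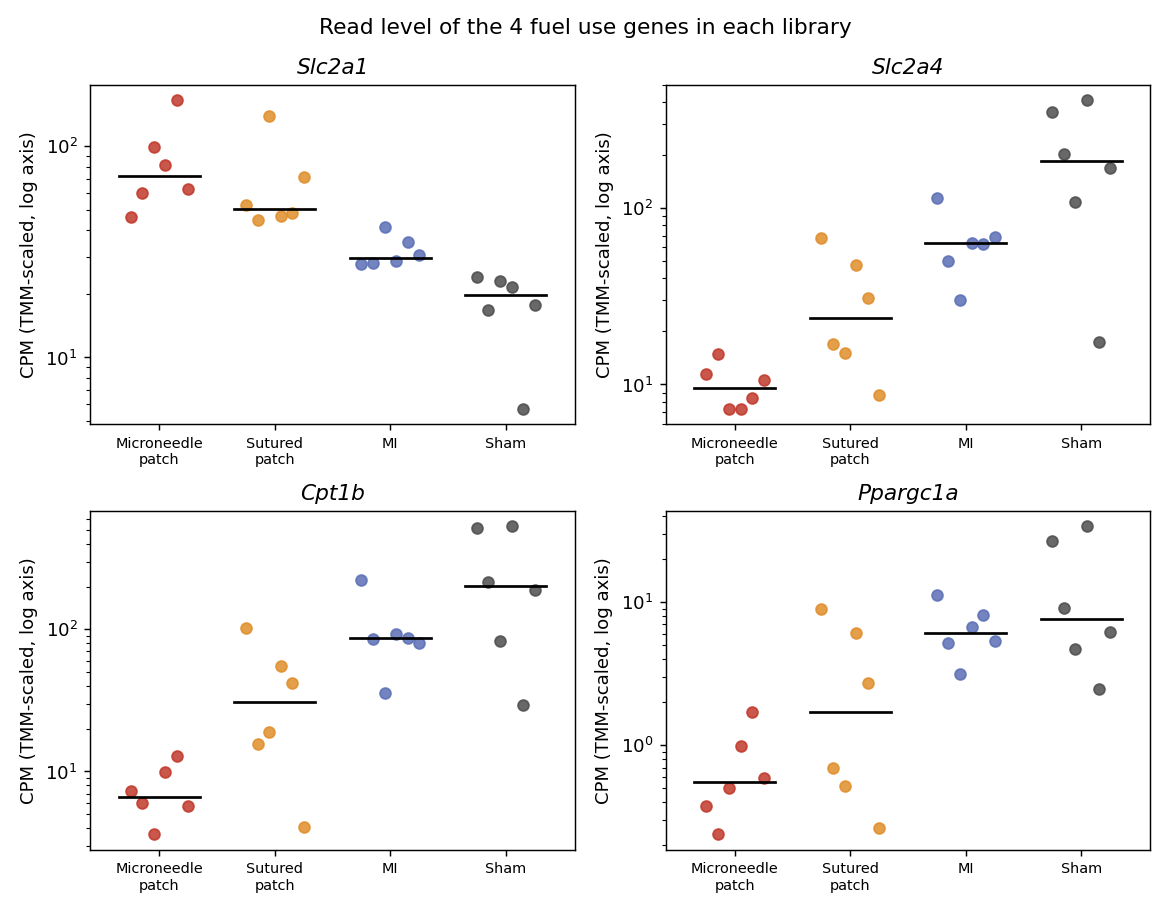
Each point is 1 library, each bar the median of 6 libraries, and the vertical axes give TMM-scaled CPM on a log scale for each gene in the Microneedle patch, Sutured patch, MI and Sham groups. Slc2a1 medians stand at 72.3, 50.6, 29.5 and 19.7 CPM in that order of groups, while Cpt1b medians stand at 6.63, 30.6, 86.6 and 201 CPM.

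Slc2a4 ran from 7.29 over 9.53 to 14.98 CPM in Microneedle patch libraries and from 8.74 over 23.95 to 67.7 CPM in Sutured patch libraries. In MI it ran from 30.2 over 63.2 to 114 CPM, and in Sham from 17.4 over 186 to 411 CPM. Every Microneedle patch library was below every MI and every Sham library, whereas the Sutured patch group overlapped with each other group. In MI no library was below the lowest Sham library, replicate 5, which at 17.4 CPM stood far under the next Sham library at 108 CPM.

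The mean of Slc2a4 was 10.01 ± 2.98 CPM in the Microneedle patch group, 31.2 ± 22.7 CPM in the Sutured patch group, 64.9 ± 27.9 CPM in MI and 210 ± 148 CPM in Sham (SD, n = 6 each). It fell in MI relative to Sham (log2 fold change -1.70, SE 0.51, edgeR adjusted p = 0.00851), in the Sutured patch group relative to Sham (-2.75, SE 0.53, edgeR adjusted p = 1.33e-04) and in the Microneedle patch group relative to Sham (-4.39, SE 0.57, edgeR adjusted p = 6.25e-07). The last of these differences is 21.04-fold, and 10.5% of all tested genes had a Microneedle patch group wholly below Sham. Relative to MI it was 6.49-fold lower in the Microneedle patch group (log2 fold change -2.70, SE 0.53, edgeR adjusted p = 0.00216, below every MI library in 6 of 6 libraries). In the Sutured patch group its log2 fold change from MI was -1.06 with a 95% interval from -2.09 to -0.021, and it missed the threshold after adjustment (edgeR adjusted p = 0.242).

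Cpt1b had the lowest log2 fold changes of the 4 genes in the Microneedle patch group, against Sham, MI and the Sutured patch alike, while Slc2a4 had the lowest in MI and in the Sutured patch group against Sham. It ran from 3.61 over 6.63 to 12.9 CPM in Microneedle patch libraries and from 4.07 over 30.6 to 103 CPM in Sutured patch libraries. In MI it ran from 35.9 over 86.6 to 223 CPM, and in Sham from 29.4 over 201 to 533 CPM. The highest Microneedle patch library thus lay below the lowest library of MI and of Sham. The MI range overlapped with the Sutured patch and Sham ranges. It lay above the lowest Sham library throughout and below Sham replicates 1 and 4, at 514 and 533 CPM.

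In the Microneedle patch group Cpt1b averaged 7.57 ± 3.34 CPM, against 260 ± 215 CPM in Sham (SD, n = 6 each), a fall of 34.3-fold by the fit (log2 fold change -5.10, SE 0.72, edgeR adjusted p = 2.05e-06). Only 82 of the 14540 tested genes, Cpt1b included, had a log2 fold change as low or lower in this comparison. Against the MI mean of 100.9 ± 63.2 CPM the fall was 13.3-fold (log2 fold change -3.73, SE 0.68, edgeR adjusted p = 0.00119), and 43 of the 14540 genes, itself included, were as low or lower. With the Sutured patch, Cpt1b averaged 39.8 ± 36.1 CPM and was lower than in Sham (log2 fold change -2.71, SE 0.64, edgeR adjusted p = 0.00115). Its difference from MI missed the threshold (log2 fold change -1.34, 95% interval from -2.60 to -0.076, edgeR adjusted p = 0.221).

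Between MI and Sham, Cpt1b had a log2 fold change of -1.37 with a 95% interval from -2.63 to -0.11, which did not pass after adjustment (edgeR adjusted p = 0.0714). It passed without MI replicate 1 (-1.76, edgeR adjusted p = 0.0293), without Sham replicate 5 (-1.60, edgeR adjusted p = 0.0264), without Sham replicate 3 (-1.55, edgeR adjusted p = 0.0474) and without Sutured patch replicate 6 (-1.37, edgeR adjusted p = 0.0472). MI replicate 1, at 223 CPM, had more than any other MI library, the next being replicate 4 at 93.5 CPM, and it was also the highest MI library of Slc2a4 and Ppargc1a.

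Ppargc1a was the least abundant of the 4 by reads, and its lowest libraries held few. It had from 3 to 24 counts per Microneedle patch library and from 4 to 130 per Sutured patch library, against 41 to 149 in MI and 13 to 341 in Sham. As a level this was from 0.24 over 0.55 to 1.70 CPM in the Microneedle patch group and from 0.27 over 1.71 to 9.0 CPM in the Sutured patch group. MI libraries ran from 3.14 over 6.04 to 11.2 CPM and Sham libraries from 2.48 over 7.67 to 33.8 CPM. The Microneedle patch range lay below the MI and Sham ranges without overlap, and the MI range lay within the Sham range.

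Ppargc1a averaged 0.74 ± 0.54 CPM in the Microneedle patch group, 3.21 ± 3.59 CPM in the Sutured patch group, 6.62 ± 2.79 CPM in MI and 13.8 ± 13.1 CPM in Sham (SD, n = 6 each). It fell in the Microneedle patch group relative to Sham (log2 fold change -4.21, 18.5-fold, SE 0.78, edgeR adjusted p = 7.15e-05) and relative to MI (-3.14, 8.83-fold, SE 0.76, edgeR adjusted p = 0.00792). It was also lower in the Sutured patch group than in Sham (log2 fold change -2.11, SE 0.69, edgeR adjusted p = 0.0145). That call was lost without Sham replicate 4, the highest Sham library (-1.60, edgeR adjusted p = 0.0599), and with the 2 groups fitted alone (-2.12, edgeR adjusted p = 0.0598), while the log2 fold change was -2.73 without Sutured patch replicate 1. The differences between MI and Sham (log2 fold change -1.07, 95% interval from -2.45 to 0.31, edgeR adjusted p = 0.200) and between the Sutured patch group and MI (-1.04, from -2.44 to 0.36, edgeR adjusted p = 0.399) did not pass. The Sutured patch value against MI was -1.66 without Sutured patch replicate 1 and -1.64 with the replicate number as a block, and passed in neither.

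Counted over the 4 genes, 2 were called in MI against Sham, 1 higher and 1 lower, where 44.7% of all tested genes were called, 21.6% higher and 23.2% lower. All 4 were called in the Sutured patch group against Sham (1 higher, 3 lower), where 48.0% of all genes were called, 24.1% higher and 23.8% lower. They were likewise called in the Microneedle patch group against Sham, where 51.5% were called, 25.9% higher and 25.7% lower. These 3 comparisons share the Sham libraries, and calls were about as frequent as not among all genes. Against MI, all 4 were called in the Microneedle patch group (1 higher, 3 lower), where 14.5% of all genes were called, 7.12% higher and 7.41% lower. In the Sutured patch group 0 of the 4 were called against MI by edgeR, where 4.55% of all genes were called. By edgeR's unadjusted p, 3 of the 4 were below 0.05 in this comparison, as were 2868 of all 14540 genes. DESeq2 called 1 of the 4, Slc2a1, and 1130 genes in all. Both comparisons with MI share the MI libraries. Groups without overlap were seen for 3 genes lower in the Microneedle patch group than in MI, a pattern that 8.34% of all genes showed, and for Slc2a1 higher, which 6.54% showed. For the Microneedle patch against MI, the median over the 4 genes was -2.92 log2 units, with 0.021 over all genes. For the Sutured patch against MI it was -1.05 log2 units, with -0.0016 over all genes.

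**Figure D2:**
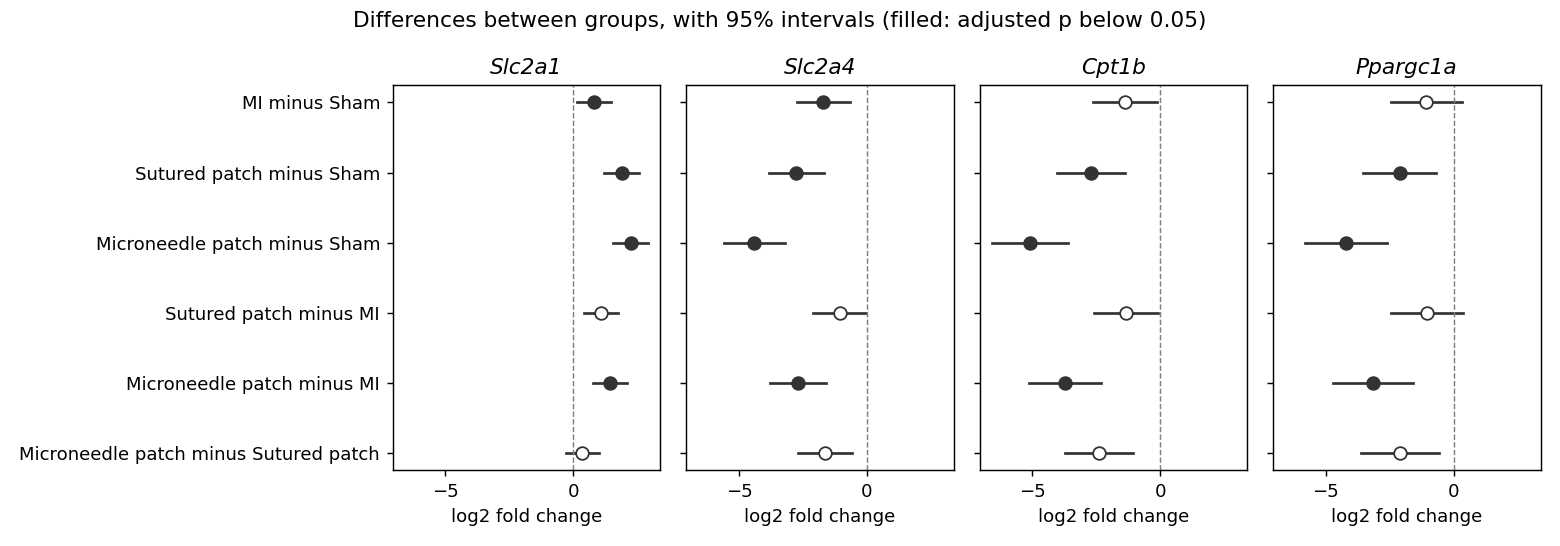
Points are log2 fold changes of each gene in the 6 comparisons and lines their 95% intervals from the edgeR fit; filled points have an adjusted p below 0.05. Slc2a1 points lie to the right of 0 and those of the other genes to the left, with the farthest, Cpt1b in the Microneedle patch group against Sham, at -5.10.

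The Microneedle patch group was also tested directly against the Sutured patch group. Of the 4 genes, 0 were called by edgeR, where 0.316% of all genes were called. By edgeR's unadjusted p, 3 of the 4 were below 0.05, as were 1992 of all 14540 genes. DESeq2 called 2 of the 4, and 427 genes in all. Cpt1b was 5.25-fold lower with microneedles by the fit (log2 fold change -2.39, SE 0.65, 95% interval from -3.72 to -1.06, edgeR adjusted p = 0.0849), and 63 of the 14540 genes, itself included, were as low or lower. It passed with DESeq2 (-2.39, adjusted p = 0.0137), without Sham replicates 4 and 5 (-2.41, edgeR adjusted p = 0.0382), without Sham replicate 5 (-2.39, edgeR adjusted p = 0.0427) and without Sutured patch replicate 6 (-2.63, edgeR adjusted p = 0.0266). It did not pass in the other alternatives or without any other single library, with edgeR adjusted p-values up to 0.138 and 0.243. Slc2a4 had a log2 fold change of -1.64 (SE 0.52, 95% interval from -2.71 to -0.57, edgeR adjusted p = 0.139). It passed with DESeq2 (-1.64, adjusted p = 0.0309), without Sham replicates 4 and 5 (-1.66, edgeR adjusted p = 0.0394) and without Sham replicate 5 (-1.65, edgeR adjusted p = 0.0455). With the 2 patch groups fitted alone, and so without Sham, it did not pass (-1.65, edgeR adjusted p = 0.0860). Without Sutured patch replicate 1 the log2 fold change was -1.27 (edgeR adjusted p = 0.350). Sham libraries are in neither group of this comparison, but enter the fit of all 24 libraries. Ppargc1a had a log2 fold change of -2.10 (95% interval from -3.64 to -0.57, edgeR adjusted p = 0.198), and -1.46 without Sutured patch replicate 1 (edgeR adjusted p = 0.481).

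Libraries of the Sutured patch group stood apart from each other, over all tested genes as well as in the genes described here. On the second principal component of all 14540 genes, Sutured patch replicates 1, 4 and 5 lay between -31.7 and -7.16 and replicates 2, 3 and 6 between 15.6 and 48.9. Spread on this component was not particular to the Sutured patch group. Microneedle patch libraries ran from -7.21 to 57.4 and Sham libraries from -58.9 to 114, while MI libraries ran from -55.5 to -29.1. Cpt1b was at 103, 55.3 and 42.2 CPM in Sutured patch replicates 1, 4 and 5, but at 15.5, 19.0 and 4.07 CPM in replicates 2, 3 and 6. Ppargc1a was at 9.0, 6.08 and 2.72 CPM in replicates 1, 4 and 5 and at 0.69, 0.52 and 0.27 CPM in replicates 2, 3 and 6. Slc2a4 split the same libraries, with 67.7, 47.7 and 30.8 CPM in the first set and 17.1, 15.2 and 8.74 CPM in the other. For all 3 genes, replicate 6 was therefore within the range of the Microneedle patch libraries and replicate 1 within the range of MI. Slc2a1 did not follow this division, since its highest Sutured patch libraries were replicates 3 and 6 at 139.7 and 71.2 CPM and the other 4 lay between 45.0 and 52.8 CPM.

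The balance of the glucose transporters was read as the ratio of Slc2a1 to Slc2a4 reads in the same library, a quantity that does not depend on scaling between libraries and is not divided by gene length. The ratio ran from 4.02 over a median of 8.55 to 19.6 in Microneedle patch libraries and from 0.78 over 2.10 to 9.20 in Sutured patch libraries. In MI it ran from 0.24 over 0.50 to 1.38, and in Sham from 0.052 over 0.094 to 0.33. Slc2a1 reads outnumbered Slc2a4 reads in 6 of 6 Microneedle patch libraries, 4 of 6 Sutured patch libraries, 1 of 6 MI libraries and 0 of 6 Sham libraries. Of the reads of both transporters together, Slc2a1 supplied 87.7% ± 6.62 in the Microneedle patch group, 67.7% ± 19.6 in the Sutured patch group, 35.2% ± 12.6 in MI and 11.8% ± 7.76 in Sham (SD, n = 6 each). The summed level of both was 95.8 ± 41.3 CPM in the Microneedle patch group, 98.6 ± 33.8 CPM in the Sutured patch group and 96.9 ± 24.7 CPM in MI, against 229 ± 153 CPM in Sham. Among the groups with an infarct the mean of this sum thus differed by less than the spread within a group. By reads, Slc2a1 made up most of it on average in both patch groups and Slc2a4 in MI. Since reads are not divided by gene length, neither the sum nor the share is a measure of transporter molecules. No test is given for these ratios, because they combine genes that were selected together.

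**Figure D3:**
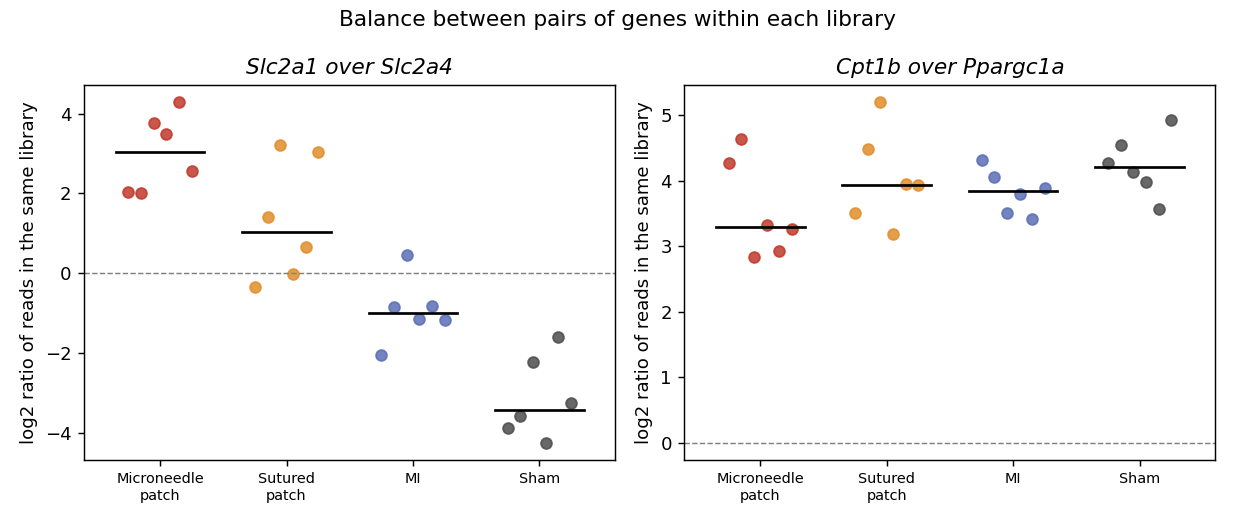
Points are the log2 ratio of the reads of one gene to those of another in the same library, bars are group medians, and the dashed line marks equal reads. The median Slc2a1 to Slc2a4 ratio steps down over the Microneedle patch, Sutured patch, MI and Sham groups, with overlap between neighbouring groups only. Cpt1b to Ppargc1a ratios of all groups overlap.

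The ratio of Cpt1b to Ppargc1a reads, in contrast, overlapped between all groups. It ran from 7.14 over 9.81 to 25 in Microneedle patch libraries, from 9.10 over 15.4 to 36.9 in Sutured patch libraries, from 10.7 over 14.4 to 19.9 in MI and from 11.8 over 18.5 to 30.4 in Sham. The overlap of the Microneedle patch group with MI and Sham rested on replicates 1 and 2, at 19.4 and 25. These held 5 and 3 Ppargc1a reads. The remaining Microneedle patch libraries, with at most 24 Ppargc1a reads, ran from 7.14 to 10, below every MI and Sham library. On the log2 scale this ratio averaged 3.54 ± 0.74 in the Microneedle patch group and 4.24 ± 0.47 in Sham (SD, n = 6 each), although the log2 fold change of Cpt1b itself between them was -5.10. The ratio of Cpt1b to Slc2a4 reads was below 1 in 4 of 6 Microneedle patch libraries (median 0.59) and above 1 in 6 of 6 MI libraries (median 1.43), with medians of 1.21 in the Sutured patch group and 1.20 in Sham. The 6 Microneedle patch libraries spanned 0.40 to 1.53 and the 6 MI libraries 1.17 to 1.95, so these ranges overlapped.

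Within groups, where no difference between treatments can enter, the 3 muscle-associated genes varied together in Sham and in the Sutured patch group. In Sham, Cpt1b and Slc2a4 had a Pearson r of 0.97 and a Spearman rho of 1 (n = 6, exact two-sided permutation p = 0.00139 and 0.00278, adjusted p = 0.00833 and 0.0167 over 24 relations), and r was 0.996 without the 2 libraries farthest from the median. Cpt1b and Ppargc1a had r = 0.96 and rho = 1 in Sham (n = 6, exact permutation p = 0.00139 and 0.00278, adjusted p = 0.00833 and 0.0167), and r was 0.95 without the 2 farthest libraries. In the Sutured patch group Slc2a4 and Ppargc1a had r = 0.99 and rho = 1 (n = 6, exact permutation p = 0.00139 and 0.00278, adjusted p = 0.00833 and 0.0167), and r was 0.999 without the 2 farthest. Of the 24 relations tested, 6 pairs within 4 groups, 6 passed by r at an adjusted p below 0.05, which were the 3 pairs of these 3 genes in Sham and in the Sutured patch group. By rho 4 of these 6 passed, and the exceptions were Cpt1b with Slc2a4 and with Ppargc1a in the Sutured patch group (rho = 0.94 each, n = 6, exact permutation p = 0.0167, adjusted p = 0.0667; r = 0.97 and 0.94, adjusted p = 0.0133 and 0.0222). Libraries of 1 group share their protocol but differ in depth in Sham, and the smallest p that 720 pairings can give is 0.00139. On the second principal component of all 14540 genes, Sham libraries stood in the reverse order of their levels of these 3 genes. Sham replicate 4 lay lowest there at -58.9 and Sham replicate 5 highest at 114. How many pairs among all tested genes vary together to this degree in the same libraries was not tested.

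In MI the same pairs had r between 0.93 and 0.96 and rho between 0.66 and 0.89 (n = 6, exact permutation p for r between 0.0167 and 0.0417, adjusted p between 0.0571 and 0.10). These values rested on replicates 1 and 3, the libraries farthest from the median, without which r was -0.13 for Slc2a4 and Cpt1b, 0.35 for Slc2a4 and Ppargc1a and 0.54 for Cpt1b and Ppargc1a. In the Microneedle patch group Slc2a4 and Cpt1b had r = -0.13 and rho = 0.086 (n = 6, exact permutation p = 0.819 and 0.919), at levels where all 6 libraries lay within 3.57-fold of each other for Cpt1b and within 2.05-fold for Slc2a4. Slc2a1 passed with none of the other genes in any group, with the smallest adjusted p by r at 0.10, for Ppargc1a in the Microneedle patch group (r = 0.81, rho = 0.77, n = 6, exact permutation p = 0.0417 and 0.103). Its signs differed between groups: with Cpt1b, r was 0.38 in the Microneedle patch group, -0.36 in the Sutured patch group, -0.79 in MI and 0.78 in Sham, and rho was 0.20, -0.14, -0.71 and 0.49 in the same order (n = 6 each, exact permutation p for r between 0.0556 and 0.469). The positive value in Sham rested on the 2 libraries farthest from the median, among them replicate 5, the shallowest library and the lowest for both genes, and r was -0.16 without them.

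**Figure D4:**
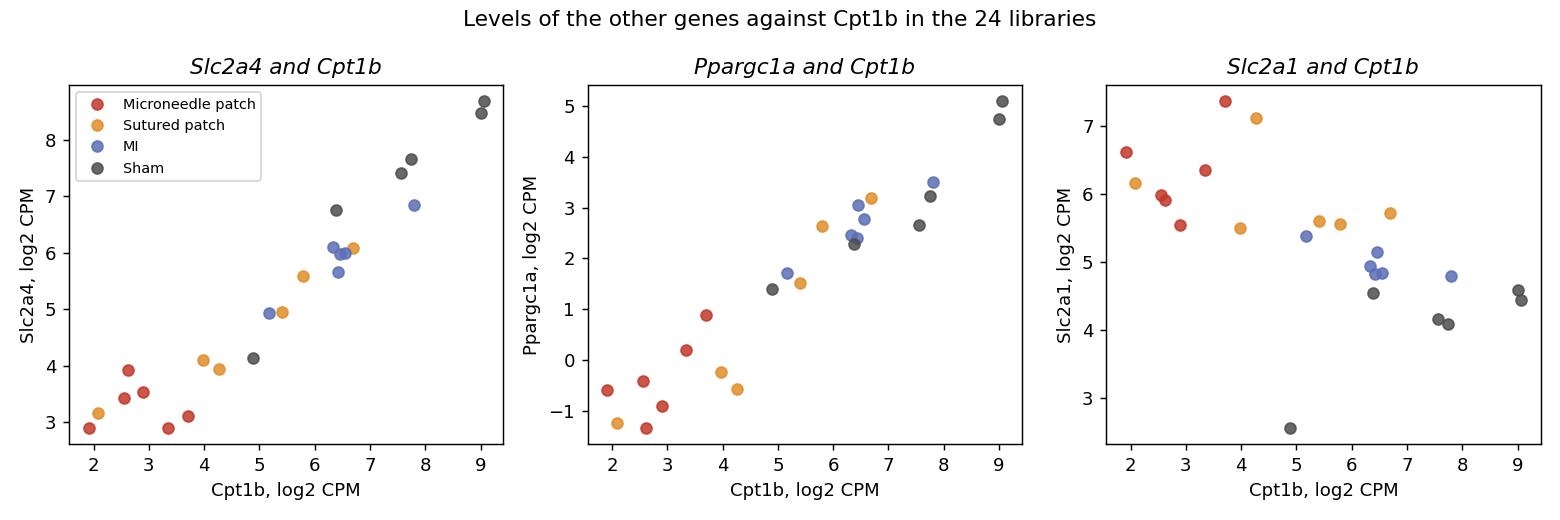
Each point is 1 of 24 libraries, coloured by group, with the log2 CPM of Cpt1b on the horizontal axis and that of Slc2a4, Ppargc1a or Slc2a1 on the vertical axis. Slc2a4 and Ppargc1a run up with Cpt1b across the groups, whereas Slc2a1 is high where Cpt1b is low, apart from 1 Sham library at 2.56 log2 CPM of Slc2a1.

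Likeness to other transcripts was described by Pearson's r of log2 CPM over the 24 libraries, which share the differences between groups. An r over 0.9 was found with 248 of the 14539 other tested genes for Cpt1b, with 261 for Slc2a4, with 164 for Ppargc1a and with 7 for Slc2a1. Among these other genes Slc2a4 ranked 63 and Ppargc1a 65 in likeness to Cpt1b, with r of 0.96 each, and r stayed at 0.96 and 0.95 over the 18 libraries with an infarct. Of the 100 genes most like Cpt1b, 68 were also among the 100 most like Ppargc1a and 55 among the 100 most like Slc2a4, while 0 were among the 100 most like Slc2a1. The gene most like Cpt1b was ENSRNOG00000059166, with r = 0.99 over 24 and over 18 libraries. It averaged 29.6 ± 9.94 CPM in the Microneedle patch group, 115 ± 88.9 CPM in the Sutured patch group, 271 ± 127 CPM in MI and 622 ± 491 CPM in Sham (SD, n = 6 each). The gene most like Slc2a1 was ENSRNOG00000036677, with r = 0.93 over 24 and 0.90 over 18 libraries. It averaged 83.6 ± 37.3 CPM in the Microneedle patch group, 54.4 ± 36.2 CPM in the Sutured patch group, 23.8 ± 11.3 CPM in MI and 4.11 ± 1.80 CPM in Sham (SD, n = 6 each). The sources used here pair neither ID with a gene name.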

How the data were processed

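The authors deposited raw counts of reads for each Ensembl gene ID, with a column for every library. HISAT2, featureCounts and the build rn6 are named in the submitters' processing notes. Versions, annotation release, use of strand and handling of multi-mapping reads are not stated there, so overlapping, antisense or near-identical genes may share counts. Columns were assigned by the code in each sample title, and 0 stayed unassigned. The 4 genes, the lists and the tests were chosen with earlier results of these data known. Low genes were removed with edgeR's filterByExpr (version 4.0.16, R 4.3.3, minimum count 10); the rest were scaled by TMM and fitted with 4 group means and robust quasi-likelihood F tests; the standard error is the absolute log2 fold change over the square root of F. The test was run on simulated data first. Log2 CPM used a prior count of 2. Ppargc1a had few counts in some libraries, and Sham libraries were the shallowest. Variation between libraries was 51.8% in Sham, 34.0% in the Sutured patch group, 33.1% in the Microneedle patch group and 21.3% in MI (edgeR's biological coefficient of variation). Correlations used SciPy 1.17.1.

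The alternatives were edgeR's RLE scaling, no filter, DESeq2 1.42.0, the 2 groups alone, a replicate block, leaving out Sham replicates 4 and 5, thinning to 5443782 counts, and leaving out each library. The RefSeq gene table (assembly GRCr8) holds 0 of the Ensembl IDs, so 11 pathway and 9 marker lists, and levels relative to muscle markers, were not run. The 4 genes were named in full by rule, and of the genes most like a member 1 each for Cpt1b and Slc2a1.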

Additional observations from a re-analysis of the deposited data

Results flagged for a closer look

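In 32 checks of single libraries within groups of 6, a library stood apart from the nearest other by more than 0.625 of the group's range in 2 cases, and chance alone marks about 1 group in 20. Slc2a1 in Sutured patch replicate 3 was at 139.7 CPM, with a gap of 0.72 of the range to the next library. Cpt1b in MI replicate 1 was at 223 CPM, with a gap of 0.69 of the range.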

How the results depend on the processing

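Over 24 log2 fold changes (4 genes in 6 comparisons), 156 of 167 values under alternatives other than leaving out a single library kept their direction and side of the threshold, as did 552 of 576 values without 1 library, and 0 reversed. Ppargc1a did not pass the filter in the fit of the patch groups alone and has no value there. For MI against Sham, the call of Slc2a1 was lost without the filter (0.82) and without Sham replicates 4 and 5 (0.67), and Cpt1b passed with the replicate block (-1.26). For the Sutured patch against MI, Slc2a1 passed with the 2 groups alone (1.08), without Sham replicates 4 and 5 (1.07) and with DESeq2 (1.07). For the Microneedle against the Sutured patch, Slc2a4 passed without Sham replicates 4 and 5 (-1.66) and with DESeq2 (-1.64), and Cpt1b likewise (-2.41 and -2.39). For the Sutured patch against Sham, Ppargc1a was lost with the 2 groups alone (-2.12). The cause of these changes was not tested. Without 1 library, the log2 fold changes whose call moved ran as follows. Slc2a1 ran from 0.63 to 0.90 for MI against Sham and from 0.73 to 1.19 for the Sutured patch against MI. Cpt1b ran from -1.76 to -1.03 for MI against Sham and from -2.63 to -1.84 for the Microneedle against the Sutured patch. Slc2a4 ran from -1.84 to -1.27 for the Microneedle against the Sutured patch, and Ppargc1a from -2.73 to -1.60 for the Sutured patch against Sham. Without a change of call, Ppargc1a ran from -1.66 to -0.80 for the Sutured patch against MI and from -2.53 to -1.46 for the Microneedle against the Sutured patch. CPM from total counts moved 0 of 16 group means by more than 1 SD. The TMM factors ran only from 0.92 to 1.09, so such a move was hardly possible and the check says little about scaling.

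Same-numbered libraries did not deviate together throughout: 19 of 36 correlations of same-numbered pairs were over 0.1 (median 0.10, lowest -0.14), against 37 of 180 for pairs of other numbers (median -0.031). A library correlated best with its own number in 24 of 72 checks, where each check had the 6 libraries of another group to choose from. The numbers were not taken as a pairing, because not every same-numbered pair was over 0.1 and the labels give no shared source; the higher values of same-numbered pairs are a hint from the data. The replicate block changed no other call of the 4 genes than that of Cpt1b.

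Counts over all genes moved by more than 1.5 times in the comparisons among infarct groups. For the Sutured patch against MI, 661 genes became 2141 with the 2 groups alone, 1715 without Sham replicates 4 and 5, 1130 with DESeq2, and 308 (without MI replicate 1) to 1408 (without Sham replicate 5) without 1 library. For the Microneedle patch against MI, 2112 became 4593 with the 2 groups alone, 3804 without Sham replicates 4 and 5, and 1036 (without MI replicate 1) to 3482 (without Sham replicate 5). For the Microneedle against the Sutured patch, 46 became 28 without the filter, 159 with the replicate block, 499 without Sham replicates 4 and 5, 427 with DESeq2 and up to 302 without Sham replicate 5. By edgeR 0 genes were left without Sutured patch replicate 4, Sutured patch replicate 5 or Microneedle patch replicate 2, with 1516, 1630 and 1487 at an unadjusted p below 0.05; DESeq2 was not run without these libraries. Alternatives for counts over gene lists were not run, since no list could be matched.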
